A study of Mus musculus with 6 samples.

Results

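The SLC25 mitochondrial carriers are a family of membrane proteins that move metabolites, nucleotides and cofactors across the inner mitochondrial membrane, and their RNA was followed here in fibroblasts with a disrupted pyruvate carboxylase gene. Members were all genes of the deposited table whose GENCODE mouse symbol starts with Slc25a and a digit. This gave 40 of the 16540 genes in the table, and the other 8 annotated SLC25 genes (Slc25a2, Slc25a5-ps, Slc25a21, Slc25a31, Slc25a34, Slc25a41, Slc25a43 and Slc25a48) are not analysed here. All 40 passed the filter on low values, a normalised count of 10 or more in 2 or more libraries.

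The cells were NIH-3T3, an established mouse embryonic fibroblast line, infected with lentivirus for Cas9 and 1 guide RNA, kept under 2 ug/mL puromycin and studied as polyclonal pools. The groups were PC sg2 (n = 2 libraries) and PC sg5 (n = 2), both named after pyruvate carboxylase, and the control guide R26 sg1 (n = 2). Every group was held for 48 h at 0.2 mM glutamine with 10% dialyzed serum. Whether libraries of the same guide stem from different cultures is not stated in the labels, and the p-values here therefore reflect the spread among these libraries alone, which may be technical. Recovered reads ranged from 22895172 to 63701586 in the PC libraries and were 69337013 and 71710049 in the controls, so members with few reads are least precise in PC sg5 replicate 2. Pcx, which encodes pyruvate carboxylase, had 316 and 375 normalised counts with PC sg2, 713 and 716 with PC sg5, and 2914 and 3015 in the controls. All 8 fibroblast markers examined were present in every library at 9790 normalised counts or more. Their summed level was 510513 to 530787 in the PC libraries and 1224500 to 1274700 in the controls. Among 16 markers of epithelium, leukocytes, endothelium, muscle and adipocytes, 6 had a row in the table. They lay at 8.55 to 284 normalised counts per library and summed to 215 to 259 in the PC libraries and 465 and 543 in the controls. Their part in any result was not tested.

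As background, carriers of this family are encoded in the nucleus, made in the cytosol and inserted into the inner membrane by the TIM22 complex. They set which carbon and nitrogen compounds can leave or enter the matrix. Pyruvate carboxylase makes oxaloacetate in the matrix, from which aspartate, malate and citrate are formed, and these leave through carriers of this family.

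Both PC guides together were set against the control to ask how the carriers' RNA differed when pyruvate carboxylase was targeted. Of the 40 members, 31 passed the threshold, a limma Benjamini-Hochberg adjusted p under 0.05 over all 16526 genes tested, where 67.9% of all genes did. They divided into 20 that rose (background 34.3%) and 11 that fell (background 33.6%). One of the 11, Slc25a54, passed the filter on low values through the controls alone, so it had to be lower in the PC libraries, and without it 30 members were past the threshold, 10 of them lower. Large rises were found in Slc25a33, a carrier of pyrimidine nucleotides, and Slc25a44, a carrier of branched-chain amino acids. The citrate carrier Slc25a1, the dicarboxylate carrier Slc25a10 and Slc25a45 were lower by about 1 on the log2 scale. The median log2 fold change was 0.12 over the members (0.17 without Slc25a54) and -0.01 over all genes tested, and the median size regardless of sign was 0.34 over the members and 0.44 over all genes. In these bulk libraries fewer cells of a kind and less RNA per cell cannot be told apart. At least 2-fold changes were found in 7 members (17.5%), or 6 without Slc25a54, against 17.8% of all genes. In 29 members the 4 PC and 2 control libraries did not overlap (72.5%, against 73.2% of all genes), with the PC libraries above in 18 and below in 11 (10 without Slc25a54). The shares past the threshold, at least 2-fold changed and free of overlap lie near those of all genes and are no result about the family.

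**Figure D1:**
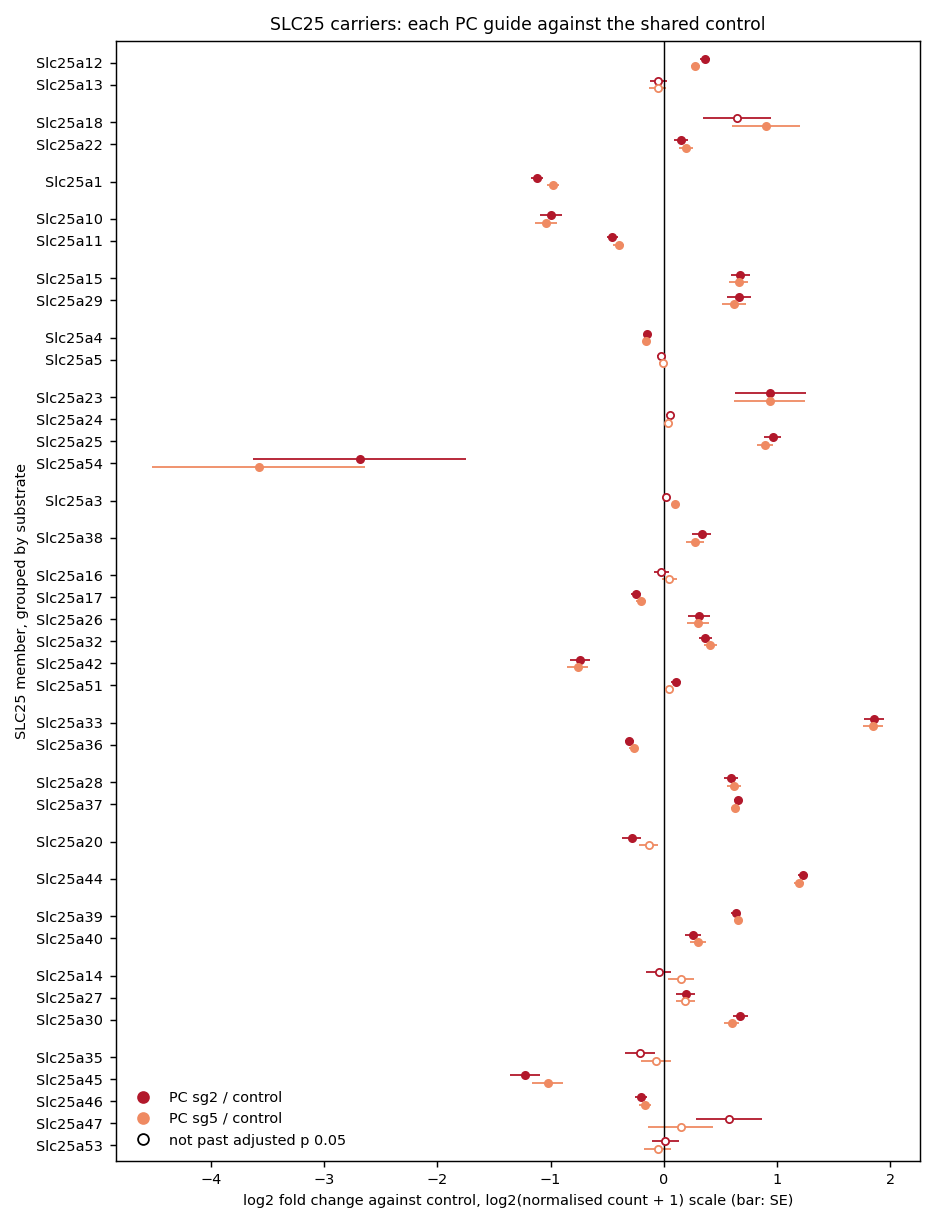
Log2 fold change (x axis, log2(normalised count + 1) scale) of 39 SLC25 members for PC sg2 (dark) and PC sg5 (light) against the shared control, with the SE as a bar, grouped by substrate on the y axis; open points are not past an adjusted p of 0.05. Slc25a33 and Slc25a44 lie farthest to the right for both guides, and Slc25a54, which has few reads, farthest to the left.

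Before the values by substrate, the promoter stretches of 3 members are shown. They carry the same E-box, CACGTG, before the RefSeq start of genes that moved in opposite directions. Slc25a33 and Slc25a36 serve the same substrate class and Slc25a1 carries citrate; Slc25a36 and Slc25a1 were added after their values were seen. Each line gives the 250 bases before the annotated start, 5′ to 3′ on the gene's strand, from RefSeq on GRCm38.p6, with the E-box in capitals. All 3 genes lie on the minus strand, at chr4:149774268-149774517 for Slc25a33, chr9:97111042-97111291 for Slc25a36 and chr16:17928220-17928469 for Slc25a1.
Slc25a33: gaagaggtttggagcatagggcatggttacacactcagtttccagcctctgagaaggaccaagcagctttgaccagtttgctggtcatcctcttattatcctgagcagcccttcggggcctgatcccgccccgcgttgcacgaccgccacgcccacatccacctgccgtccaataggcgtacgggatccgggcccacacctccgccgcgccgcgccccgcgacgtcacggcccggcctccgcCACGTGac
Slc25a36: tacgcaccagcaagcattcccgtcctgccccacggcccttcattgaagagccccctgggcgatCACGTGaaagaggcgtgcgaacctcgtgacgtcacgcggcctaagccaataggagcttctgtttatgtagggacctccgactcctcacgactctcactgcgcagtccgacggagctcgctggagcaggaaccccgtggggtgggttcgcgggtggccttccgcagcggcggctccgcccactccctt
Slc25a1: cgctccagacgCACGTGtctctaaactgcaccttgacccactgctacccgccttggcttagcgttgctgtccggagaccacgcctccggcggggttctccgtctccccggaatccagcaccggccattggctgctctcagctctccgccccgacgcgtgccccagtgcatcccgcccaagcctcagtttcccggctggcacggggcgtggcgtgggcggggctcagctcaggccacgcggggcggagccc
The E-box began 8 bases before the RefSeq start in Slc25a33, 187 in Slc25a36 and 239 in Slc25a1. By the GENCODE start, the E-box of Slc25a33 lies within the gene, and that of Slc25a36 is nearer to the start. Across both strands it occurred in 6 of the 31 members with a promoter in the table and in 17.5% of their 40 windows, against 6.02% of all 32851 windows of this length. Besides Slc25a33, Slc25a36 and Slc25a1 these were Slc25a15, which rose, and Slc25a13 and Slc25a14, which did not pass the threshold. Windows of 1 gene can overlap, and the match is a description of the letters. The core of the C/EBP-ATF response element, TGATGNAA, was in none of the 40 windows, against 3.45% of all windows. The sterol response element letters TCACNCCAC were in the window of Slc25a18 alone, against 1.05% of all windows. No member window held more than 1 of the 3 motifs.

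The aspartate-glutamate carriers send aspartate out of the matrix in exchange for glutamate and are part of the malate-aspartate shuttle. Slc25a12 (aralar; ENSMUSG00000027010, GRCm38 chromosome 2, 71271063 to 71367749, minus strand) had 4161 and 4228 normalised counts with PC sg2, 4050 and 3869 with PC sg5, and 3316 and 3207 in the controls. All 4 PC libraries lay above both controls. It rose by 0.32 ± 0.04 (SE) on the log2 scale, at a limma adjusted p of 1.08e-07. Slc25a13 (citrin; ENSMUSG00000015112, chromosome 6, 6041218 to 6217173, minus strand) had 870 and 926 with PC sg2, 901 and 885 with PC sg5, and 967 and 890 in the controls. These groups overlapped, and its log2 fold change of -0.05 did not pass the threshold, with a 95% interval of -0.19 to 0.09. The interval of Slc25a13 lies below that of Slc25a12, 0.24 to 0.40, while the difference between both genes' changes was not tested. In the controls Slc25a12 stood at 444 and Slc25a13 at 245 normalised counts per kb of exon.

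Of the carriers that move glutamate with a proton, Slc25a22 and Slc25a18, both rose, but neither call was firm. Slc25a22 averaged 1647 ± 49.7 normalised counts in the PC libraries (SD, n = 4) and 1461 ± 35.2 in the controls (SD, n = 2), a log2 fold change of 0.17 ± 0.05 (SE, limma adjusted p = 0.00493). Without control replicate 2 its adjusted p was 0.0710 at a log2 fold change of 0.15. Slc25a18 had few reads, with 58.4 and 104 normalised counts with PC sg2, 74.9 and 118 with PC sg5, and 49.22 and 50.04 in the controls. All PC libraries were higher, by 0.77 ± 0.26 (SE) on the log2 scale (limma adjusted p = 0.0120). The adjusted p of Slc25a18 was 0.0629 without control replicate 1, 0.0558 without control replicate 2 and 0.0714 without PC sg2 replicate 2, at log2 fold changes of 0.76, 0.79 and 0.57.

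Citrate leaves the matrix through Slc25a1, in exchange for malate, and feeds fatty acid and sterol synthesis in the cytosol. Slc25a1 (ENSMUSG00000003528, chromosome 16, 17925223 to 17928219, minus strand) had 2235 and 1989 normalised counts with PC sg2, 2365 and 2276 with PC sg5, and 4566 and 4591 in the controls. All PC libraries lay below both controls, with a mean of 2217 ± 161 (SD, n = 4) in the PC libraries and 4579 ± 17.4 (SD, n = 2) in the controls, or 48.4% of the control level. It fell, with a log2 fold change of -1.05 ± 0.05 (SE, limma adjusted p = 9.76e-15).

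The dicarboxylate carriers fell as well. Slc25a10, which exchanges malate or succinate for phosphate (ENSMUSG00000025792, chromosome 11, 120491840 to 120499187, plus strand), had 655 and 550 normalised counts with PC sg2, 635 and 532 with PC sg5, and 1244 and 1157 in the controls. It fell by 1.02 ± 0.09 (SE) on the log2 scale, with a limma adjusted p of 5.59e-10. Slc25a11, the oxoglutarate-malate carrier of the malate-aspartate shuttle (ENSMUSG00000014606, chromosome 11, 70644196 to 70647479, minus strand), had 2730 and 2547 with PC sg2, 2650 and 2832 with PC sg5, and 3567 and 3658 in the controls. In both genes every PC library was below both controls. Slc25a11 fell by 0.43 ± 0.04 (SE), with an adjusted p of 1.29e-08. Exons of other genes cover 6.60% of the exon bases of Slc25a10 and 8.92% of those of Slc25a11, and reads there cannot be told apart without the strand.

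Both ornithine and basic amino acid carriers rose. Slc25a15 exchanges ornithine for citrulline in the urea cycle (ENSMUSG00000031482, chromosome 8, 22375551 to 22398597, minus strand). It had 995 and 976 normalised counts with PC sg2, 921 and 1035 with PC sg5, and 584 and 651 in the controls. All PC libraries lay above the controls, and the log2 fold change was 0.67 ± 0.07 (SE, limma adjusted p = 3.49e-08). Slc25a29, a carrier of basic amino acids (ENSMUSG00000021265, chromosome 12, 108825873 to 108835883, minus strand), had 494 and 483 with PC sg2, 483 and 462 with PC sg5, and 316 and 299 in the controls. It rose by a similar size, 0.64 ± 0.09 (SE, adjusted p = 2.43e-06).

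**Figure D2:**
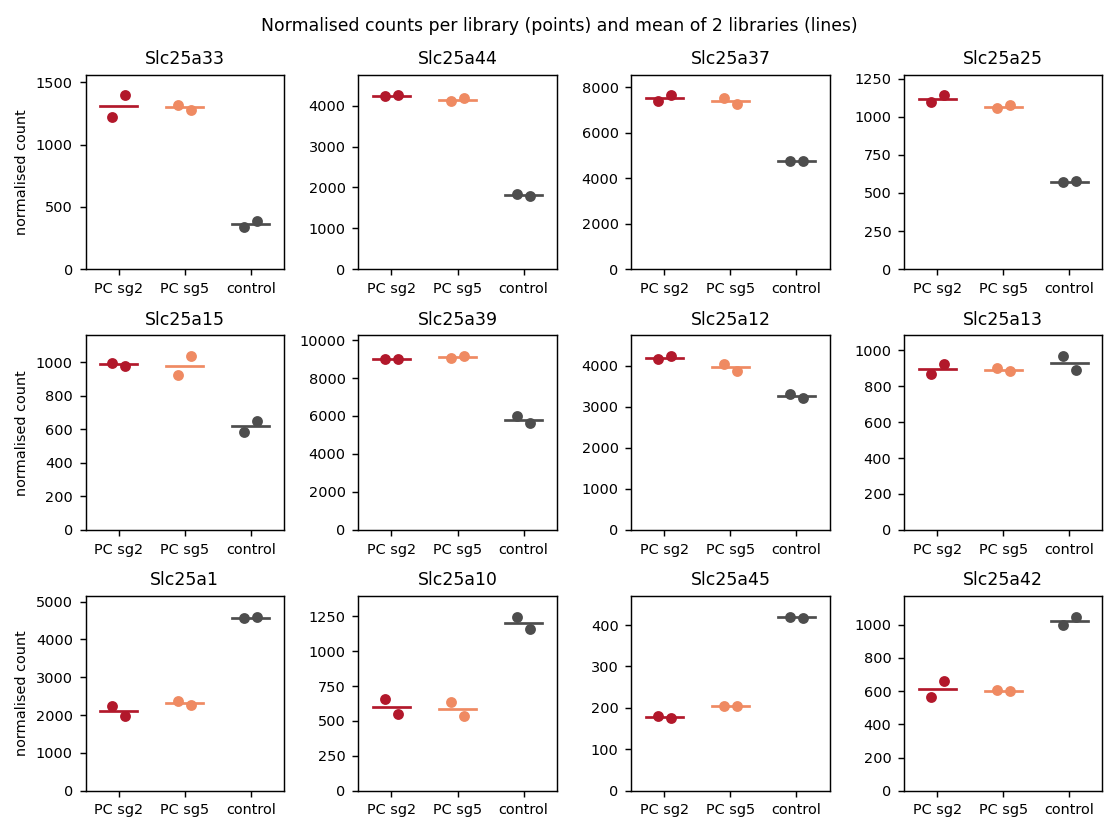
Normalised counts (y axis, from 0) of 12 SLC25 members in each library of PC sg2, PC sg5 and the control (x axis); points are libraries and lines the mean of 2 libraries. Slc25a33 lies at 1222 to 1395 in the PC libraries against 334 and 387 in the controls, Slc25a1 at 1989 to 2365 against 4566 and 4591, and Slc25a13 overlaps between groups.

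The ADP/ATP carriers, which bring ADP into the matrix and ATP out, changed little. Slc25a4 (ENSMUSG00000031633, chromosome 8, 46206797 to 46211284, minus strand) had 31019 and 30863 normalised counts with PC sg2, 31083 and 30432 with PC sg5, and 34465 and 34187 in the controls. It was 89.9% of the control mean, a log2 fold change of -0.15 ± 0.02 (SE, limma adjusted p = 1.46e-06). That direction flipped under quantile normalisation, where its log2 fold change was 0.04 with an adjusted p of 0.0872. Slc25a5 (ENSMUSG00000016319, chromosome X, 36795651 to 36798807, plus strand) had 14806 and 15015 with PC sg2, 15294 and 14879 with PC sg5, and 14904 and 15483 in the controls. These groups overlapped, and the log2 fold change of -0.02 did not pass the threshold (95% interval -0.07 to 0.04). Under quantile normalisation it was 0.07 with an adjusted p of 0.0191. Of the 50-base stretches in the transcripts of Slc25a5, 33.8% also occur in transcripts of 9 other genes, so its reads are uncertain.

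The phosphate carrier Slc25a3, which supplies phosphate for ATP synthesis (ENSMUSG00000061904, chromosome 10, 91116574 to 91124059, minus strand), had 24953 and 25230 normalised counts with PC sg2, 26530 and 26497 with PC sg5, and 25140 and 24255 in the controls. The groups overlapped, since PC sg2 replicate 1 lay below control replicate 1. The log2 fold change was 0.06 ± 0.02 (SE), with a limma adjusted p of 0.0202. The call was lost without control replicate 2 (0.04, adjusted p = 0.301) and without PC sg2 replicate 2 (0.06, adjusted p = 0.0585). It was also lost without the intensity trend in the variance, where the adjusted p was 0.178.

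Glycine enters the matrix through Slc25a38 for the first step of haem synthesis. Slc25a38 (ENSMUSG00000032519, chromosome 9, 120110374 to 120124504, plus strand) had 824 and 791 normalised counts with PC sg2, 784 and 765 with PC sg5, and 664 and 618 in the controls. Every PC library was above both controls, and it rose by 0.30 ± 0.07 (SE) on the log2 scale (limma adjusted p = 0.000708). The iron carriers of the same pathway, mitoferrins Slc25a37 and Slc25a28, rose too. Slc25a37 averaged 7441 ± 173 normalised counts in the PC libraries (SD, n = 4) and 4763 ± 3.32 in the controls (SD, n = 2), a log2 fold change of 0.64. Slc25a28 averaged 1446 ± 16.9 in the PC libraries (SD, n = 4) and 949 ± 0.94 in the controls (SD, n = 2), a log2 fold change of 0.61.

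The largest rise of the family was in a pyrimidine nucleotide carrier. Slc25a33 (ENSMUSG00000028982, chromosome 4, 149744036 to 149774277, minus strand) had 1222 and 1395 normalised counts with PC sg2, 1319 and 1276 with PC sg5, and 334 and 387 in the controls. The lowest PC library was over 3 times the highest control, and the PC mean was 3.61-fold the control mean. The log2 fold change was 1.85 ± 0.08 (SE, limma adjusted p = 2.80e-15). Exons of Gm13068 cover part of the 14.9% of its exon bases that overlap other genes, and Gm13068 itself had 12.8 to 23.4 normalised counts in the PC libraries and 1.49 and 2.18 in the controls. Slc25a36, the other pyrimidine nucleotide carrier, fell: it had 4843 and 4678 normalised counts with PC sg2, 5055 and 4735 with PC sg5, and 5876 and 5896 in the controls. Its log2 fold change was -0.29 ± 0.04 (SE, limma adjusted p = 2.60e-07). Per kb of exon, Slc25a33 stood at 690 in the PC libraries and 191 in the controls, and Slc25a36 at 503 in the PC libraries and 614 in the controls, so their order was reversed.

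The carrier of branched-chain amino acids, Slc25a44 (ENSMUSG00000050144, chromosome 3, 88410498 to 88425139, minus strand), had the smallest p of the family. It had 4238 and 4260 normalised counts with PC sg2, 4121 and 4190 with PC sg5, and 1835 and 1791 in the controls. The PC libraries agreed closely and were all above 2-fold the control mean, with a log2 fold change of 1.21 ± 0.04 (SE, limma adjusted p = 3.13e-17).

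Cofactor carriers moved in both directions. Slc25a32, a carrier of folate or FAD, and Slc25a26, which imports S-adenosylmethionine, rose by 0.39 and 0.31 on the log2 scale. The call of Slc25a26 was lost without control replicate 1 (0.25, adjusted p = 0.0582). The coenzyme A carrier Slc25a42 fell: it averaged 607 ± 41.2 normalised counts in the PC libraries (SD, n = 4) and 1021 ± 35.4 in the controls (SD, n = 2), a log2 fold change of -0.75. Slc25a17, which works in the peroxisome, fell by 0.22. Slc25a16 (0.01) and the NAD carrier Slc25a51 (0.08) did not pass the threshold. Without PC sg5 replicate 2, Slc25a51 was past it at 0.11 (adjusted p = 0.00767), and without the 50 most abundant genes at 0.12 (adjusted p = 0.00547).

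The ATP-Mg/phosphate carriers, which are regulated by calcium and adjust the adenine nucleotide pool of the matrix, were split. Slc25a25 had 1096 and 1142 normalised counts with PC sg2, 1056 and 1079 with PC sg5, and 571 and 578 in the controls. It rose by 0.93 ± 0.06 (SE) on the log2 scale (limma adjusted p = 2.40e-11). Slc25a24, the most abundant of them, did not pass the threshold (0.05, 95% interval -0.02 to 0.11). Without the 50 most abundant genes Slc25a24 was past it, at 0.09 with an adjusted p of 0.0130. Slc25a23 had 103 and 129 normalised counts with PC sg2, 89.0 and 147 with PC sg5, and 39.5 and 89.2 in the controls. The groups overlapped by a hair at 89.0 and 89.2, and the log2 fold change of 0.94 (limma adjusted p = 0.00419) was 0.36 without control replicate 1, with an adjusted p of 0.286. Without the intensity trend its adjusted p was 0.124.

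Slc25a54, grouped here with the same class, had the lowest level of the family. Its whole reads numbered 3 and 2 with PC sg2, 2 and 0 with PC sg5, and 25 and 29 in the controls. All PC libraries were below both controls, and the ratio of PC to control reads per unit of depth was 0.0958, with an exact 95% interval of 0.0368 to 0.211 that covers counting error only. It reached 10 normalised counts only in the controls, against at most 2.34 in the PC libraries, and this is how it passed the filter. With 7 reads in the PC libraries and 54 in the controls, it also lies at the lowest row total among the deposited genes, 61 reads. Its fitted log2 fold change of -3.13 (-1.36 with a pseudocount of 10) is therefore given as a description, with no test.

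The glutathione, acylcarnitine and uncoupling-protein-like carriers had log2 fold changes from -0.21 to 0.64. Both glutathione carriers rose: Slc25a39 averaged 9051 ± 73.2 normalised counts in the PC libraries (SD, n = 4) and 5798 ± 256 in the controls (SD, n = 2), a log2 fold change of 0.64, and Slc25a40 rose by 0.28. The acylcarnitine carrier Slc25a20, which serves fatty acid oxidation, fell by 0.21 (limma adjusted p = 0.0147). Its call was lost without control replicate 2 (-0.16, adjusted p = 0.172), without PC sg2 replicate 2 (-0.17, adjusted p = 0.0553) and without the 50 most abundant genes (-0.16, adjusted p = 0.0508). Among the carriers that resemble uncoupling proteins, Slc25a30 rose by 0.64, Slc25a27 rose by 0.19 and Slc25a14 did not pass (0.05). Slc25a27 was not past the threshold without control replicate 1 (0.16, adjusted p = 0.156), control replicate 2 (0.22, adjusted p = 0.0612) or PC sg5 replicate 1 (0.17, adjusted p = 0.0502), nor with DESeq2 (adjusted p = 0.0537).

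Of 5 members grouped as orphan or less settled in substrate, 2 fell and 3 did not pass the threshold. Among all genes 33.6% fell and 67.9% were past the threshold, so this count is no result about the group. Slc25a45 (ENSMUSG00000024818, chromosome 19, 5877808 to 5885878, plus strand) had 180 and 176 normalised counts with PC sg2, 204 and 205 with PC sg5, and 419 and 418 in the controls. All PC libraries were below 50% of the control mean, and it fell by 1.13 ± 0.12 (SE) on the log2 scale (limma adjusted p = 2.09e-08). Slc25a46, an outer membrane protein of mitochondrial fusion and fission, fell by 0.18. Slc25a35, Slc25a47 and Slc25a53 had log2 fold changes of -0.14, 0.36 and -0.02, and 31.3% of the exon bases of Slc25a35 overlap another gene.

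How far the family's total differed between the groups depended on the scale. Summed over the 40 members, normalised counts were 143650 to 146200 in the PC libraries and 138503 and 139322 in the controls, or 0.290% to 0.296% of all counts in the PC libraries and 0.266% and 0.269% in the controls, with no overlap. Summed per kb of exon, they were 45165 to 45942 in the PC libraries and 45139 and 45157 in the controls, also with no overlap but nearly touching. Slc25a3, Slc25a4 and Slc25a5 together made up 59.0% to 59.4% of that sum in the PC libraries and 62.5% and 62.7% in the controls. The counts of the other members summed to 72179 to 73293 in the PC libraries and 64578 and 64813 in the controls. A few abundant members weigh heavily in this sum. Slc25a39, Slc25a37 and Slc25a44 averaged 9051, 7441 and 4202 in the PC libraries and 5798, 4763 and 1813 in the controls. Of all 40 members 11 fell, so the sum does not show a rise shared by the other members. Within the order of levels per kb, Slc25a1 was number 10 in the PC libraries and number 5 in the controls, Slc25a10 was number 27 in the PC libraries and number 15 in the controls, and Slc25a33 was number 12 in the PC libraries and number 23 in the controls. Exon length here joins all annotated transcripts of a gene, so levels per kb are approximate.

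**Figure D3:**
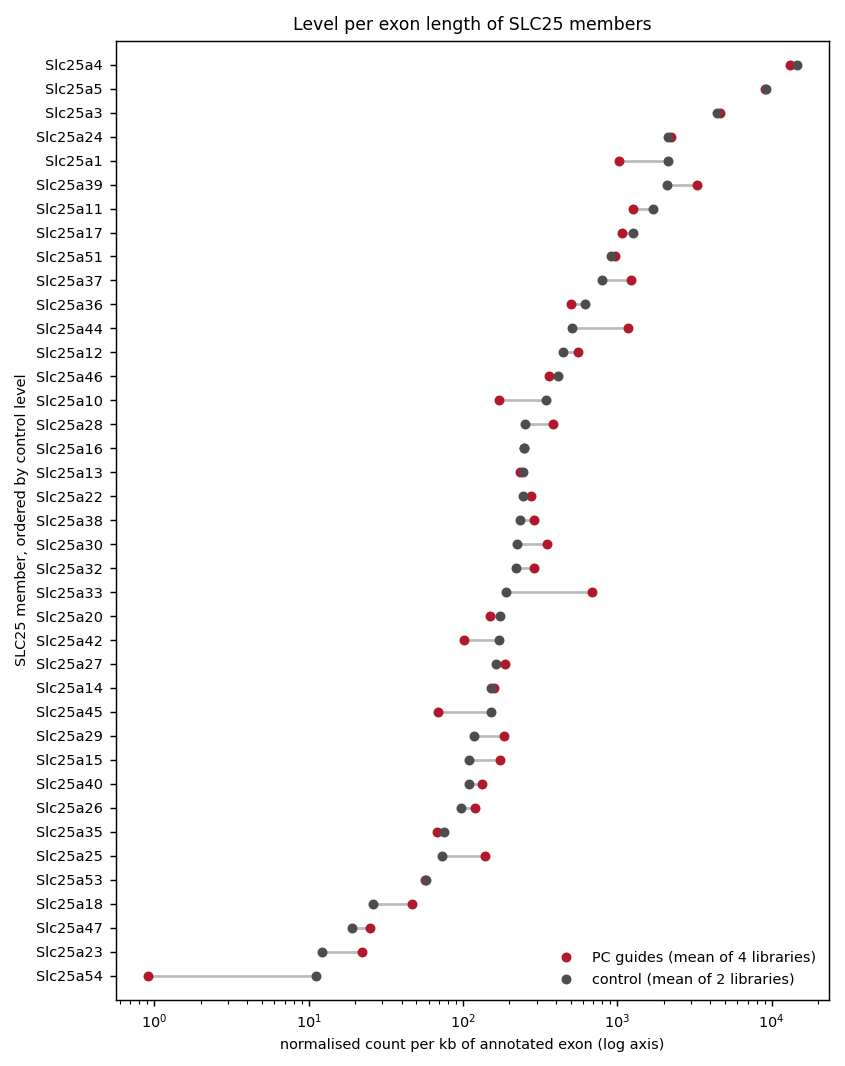
Normalised count per kb of annotated exon (x axis, log axis) for 39 members, ordered on the y axis by their control level; points are the mean of 4 PC libraries and of 2 control libraries, joined by a line. Slc25a4, Slc25a5 and Slc25a3 lead in both groups, and the longest lines are those of Slc25a54 and Slc25a33.

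The 2 PC guides gave close values in the family, set side by side against the control libraries they share. PC sg2 had 30 members past the threshold (19 higher and 11 lower, where 64.5% of all genes were past it, 32.9% higher and 31.6% lower), and PC sg5 had 29 (19 higher and 10 lower, against 64.5% of all genes, 32.6% higher and 31.8% lower). Each guide was past it in the same direction for 27 members, where 58.9% of all genes were. All of these counts include Slc25a54 as lower. It passed the filter on low values through the controls alone, so its direction was set beforehand. Slc25a33 had log2 fold changes of 1.86 with PC sg2 and 1.85 with PC sg5, Slc25a44 of 1.23 with PC sg2 and 1.20 with PC sg5, and Slc25a1 of -1.12 with PC sg2 and -0.98 with PC sg5. Slc25a20, Slc25a27 and Slc25a51 were past the threshold with PC sg2 and not with PC sg5, and Slc25a3 and Slc25a18 with PC sg5 and not with PC sg2. In the direct test of PC sg5 against PC sg2, limma found 0 of 40 members past the threshold (0.242% of all genes were), with a lowest adjusted p of 0.276. Unadjusted limma p-values under 0.05 were found for 2 members, Slc25a3 (0.0071, difference 0.08) and Slc25a1 (0.0173, difference 0.14). The share of all genes under this unadjusted cutoff was not counted, so these 2 are no result about the family. edgeR and DESeq2 also called 0 members past the threshold. Over the 36 members with a control mean of at least 100 normalised counts, the difference ran from -0.08 to 0.20 on the log2 scale, and their 95% intervals lay between -0.32 and 0.48.

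Genes that work beside the carriers also moved. Of 10 genes of the TIM22 route, which inserts the carriers into the membrane, 9 rose and 1 did not pass (median 0.55), where 34.3% of all genes rose and 67.9% were past the threshold, with the small chaperone genes Timm10, Timm8a1 and Timm9 at 1.66, 1.41 and 1.17. Of the malate-aspartate shuttle enzymes, Got1, Mdh2 and Got2 rose by 1.49, 0.32 and 0.25, and Mdh1 fell by 0.46. Family members under other symbols were split: Ucp2 and Mtch1 fell by 1.58 and 0.78, and Mtch2 rose by 0.54. Ucp2 had 771 to 894 normalised counts in the PC libraries and 2517 and 2589 in the controls. Other inner membrane transporters rose in 5 and fell in 4 of 9 cases, beside 34.3% higher and 33.6% lower among all genes. Among them were the pyruvate carrier genes Mpc1 and Mpc2 at 0.19 and 0.28, the serine carrier Sfxn1 at 0.63 and Sfxn5 at -1.11. The PC and control libraries of Mpc1 overlapped, and 23.1% of its exon bases overlap other genes. The outer membrane channels Vdac1, Vdac2 and Vdac3 had log2 fold changes of -0.29, -0.07 and 0.14. The medians of these lists are described beside the family's 0.12 and all genes' -0.01, and no list was tested as a set.

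**Figure D4:**
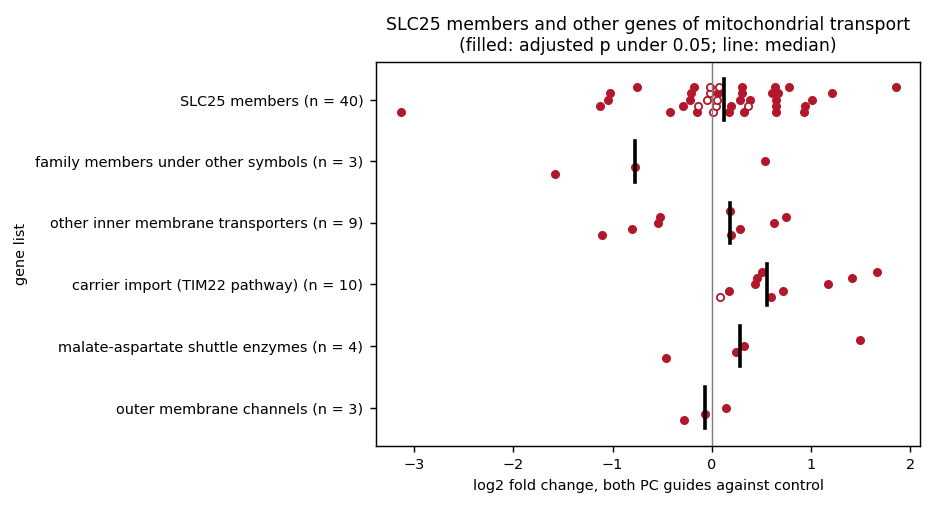
Log2 fold change of both PC guides against control (x axis) for the 40 SLC25 members and for 5 lists of related genes (y axis); filled points are past an adjusted p of 0.05 and the black line is the list's median. In the TIM22 route 9 of 10 genes are past the threshold and higher, and among the SLC25 members 20 of 40, against 34.3% of all genes; the point at -3.13 is Slc25a54, which has few reads.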

How the data were processed

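RNA from 6 libraries was measured by sequencing of polyadenylated RNA (NEBNext Ultra). Per the submitters' processing notes, the tools included STAR, featureCounts, DESeq2, Trimmomatic and bcl2fastq 2.17, and the build was GRCm38. For settings, annotation and strand, nothing is stated in the labels. The authors deposited normalised counts, a signal equal to reads per gene over the library's size factor. In every library 100% of values above 0 were whole multiples of 1 step (tolerance 0.01), so whole reads were recovered. A level of 3 reads equalled 2.18 to 6.41 normalised counts, depending on the library. It was not used as a cutoff, and lower values such as the 2 and 0 reads of Slc25a54 with PC sg5 were kept.

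Symbols came from GENCODE M21 by exact ID (16491 genes matched, 49 did not). Values were tested as log2(normalised count + 1), which understates changes of low genes, by limma 3.58.1 (R 4.3.3): 1 model of all 3 groups with a variance trend on intensity. Tests were two-sided, with p adjusted by Benjamini-Hochberg over 16526 genes (14 were filtered out). The residual degrees of freedom were 3 and the prior ones 17.3 (median). edgeR 4.0.16, with its quasi-likelihood test and TMM, and DESeq2 1.42.0 were run on the recovered reads as alternatives and called 11424 and 10604 genes for both guides, against 11222 with limma. The procedure was also run on simulated data with changes of at least 2-fold and a fixed spread, so smaller changes were not examined there. Promoters came from RefSeq, GRCm38.p6, for 31 of the 40 members. Values in every library are given for the substrate classes aspartate-glutamate, citrate, dicarboxylate, ornithine, ADP/ATP, glycine and phosphate and for members changed at least 2-fold; values per library for Slc25a18, Slc25a23, Slc25a25 and Slc25a36 were added after their values were seen. The family's counts and sums cover 40 members, of which 1 is not reported here by its own values; figures by member show the other 39. Members, lists and rules were chosen with earlier results of these data known. Groups of 2 libraries allow no test for outliers.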

Additional observations from a re-analysis of the deposited data

How the results depend on the processing

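The number of members past the threshold for both PC guides was 31 and ranged from 25 to 32 over the alternatives run: edgeR, DESeq2, quantile normalisation, taking out the 50 most abundant genes, pseudocounts of 0.5 and 10, no filter, a mean of at least 50, no intensity trend, a replicate block, and leaving out each of the 6 libraries. The count ranged from 23 to 32 for PC sg2 and from 25 to 31 for PC sg5, each also fitted on the compared groups alone, and was 0 throughout for PC sg5 against PC sg2. Of the 31 called members, 22 (14 higher and 8 lower) kept call and direction under all of these alternatives. Slc25a54 is not counted among them, since it had no value without control replicate 1, without control replicate 2 or with a mean of at least 50. The ranges above do not leave Slc25a54 out where it had a value. Over all genes, the alternatives that kept all 6 libraries called from 10142 of 12921 (a mean of at least 50) to 11424 of 16526 (edgeR) for both PC guides. How many of all genes kept call and direction throughout was not counted. The 22 members are therefore no result about the family. The calls of Slc25a3, Slc25a4, Slc25a18, Slc25a20, Slc25a22, Slc25a23, Slc25a26 and Slc25a27 did not hold throughout. Quantile normalisation turned the sign of Slc25a4 (0.0388), Slc25a5 (0.0708), Slc25a53 (0.0715), Slc25a24 (-0.0026) and Slc25a35 (0.0665). Taking out the abundant genes turned Slc25a5 (0.0260) and Slc25a53 (0.0234). Leaving out 1 library turned members that were not past the threshold: Slc25a5 ranged from -0.0459 without control replicate 1 to 0.0091 without control replicate 2, and Slc25a53 from -0.126 without control replicate 2 to 0.0842 without control replicate 1. Slc25a13 ranged from -0.112 without control replicate 2 to 0.0076 without control replicate 1, and Slc25a16 from -0.0261 without control replicate 2 to 0.0526 without control replicate 1. Without the intensity trend Slc25a18 was not past the threshold (adjusted p = 0.100). The cause of these changes was not tested. Quantile normalisation moved the median of all genes to 0.05, against -0.01.

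Samples with the same replicate number did not deviate together over all genes (correlations of -0.02, 0.03 and 0.03 between pairs of groups). This measure cannot exclude a link confined to part of the genes, which was not tested. With the replicate block, and Slc25a54 not left out, the count of members past the threshold was 31 for both PC guides and 31 for PC sg2. It was 29 for PC sg5 and 0 for PC sg5 against PC sg2. Over all genes, the replicate block called 11352 of 16526 for both PC guides. Depth limits Slc25a18, Slc25a23, Slc25a47 and Slc25a54, all under 100 normalised counts in the controls.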
